A study of Mus musculus with 20 samples.

Results

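*Usp53* and 8 transcripts of the tight junction were followed in the brains of *Winnie* and C57BL/6 mice, as transcripts of the junction that seals the blood-brain barrier. The members were taken by name from the deposited table: *Usp53*, *Tjp1*, *Cgnl1*, *Cldn5*, *Cldn12*, *Ocln*, *F11r*, *Jam2* and *Jam3*. All 9 were among the 17211 genes listed, and none was lost to a filter on low values. The members were chosen by the measured difference in CPM between *Winnie* and C57BL/6 brains, with these results known, so the genotype values below are a description and not a test.

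*Winnie* mice have chronic colitis that arises on its own from a missense mutation of *Muc2*, a mucin gene, and the C57BL/6 mice were controls from the same breeding colony without it. Both were 14 weeks old, no treatment is named for either, and all were killed with pentobarbitone. RNA of the brain was sequenced from 10 mice of each genotype, 5 labelled female and 5 labelled male. The paper counts fewer brains of both genotypes than the labels do and does not name them, so every labelled brain was used. The samples hold mixed cell types of the brain, and the vessels that carry the barrier are a small part of it. The sources used here do not say whether whole brains or pieces were extracted. The authors' reads per gene were deposited as CPM, that is, scaled to the same total in every brain. The reads themselves could be recovered from it, with totals between 16540303 and 23923769 per brain, so that 1 read was worth 0.0418 to 0.0605 CPM. The *Muc2* transcript was not among the 17211 genes listed, and a level in CPM would not show a missense mutation. The genotype labels could thus not be checked on the mutated gene. The transcript *Xist* of the inactive X chromosome and *Ddx3y* of the Y chromosome went against the sex label in 9 of 10 C57BL/6 brains and in 0 of 10 *Winnie* brains. The library numbers ran from 1 to 10 in C57BL/6 and from 11 to 20 in *Winnie* mice, so library order and genotype cannot be told apart.

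As background, tight junctions close the cleft between neighbouring endothelial cells of brain capillaries and force solutes to cross through the cells. Claudins form the sealing strands, with claudin-5 the main one of brain endothelium. Occludin stabilises the strands, and the junctional adhesion molecules (JAMs) are immunoglobulin-type receptors that pair across the cleft. On the inner side, the scaffold ZO-1 (*Tjp1*) and paracingulin (*Cgnl1*) tie these membrane proteins to actin. USP53 belongs to the ubiquitin-specific proteases and lies at tight junctions, where it binds ZO scaffolds. Most of the 9 genes are also transcribed in epithelia or other brain cells. In RNA of mixed brain tissue, fewer cells of a type and less RNA per cell cannot be told apart.

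Per kilobase of exon, the level that can be compared between genes, *Tjp1* was the highest member at 16.97 ± 1.89 CPM per kilobase (mean ± SD, n = 10) in C57BL/6 brains. *Cldn5* at 11.6 ± 1.67, *Cldn12* at 10.8 ± 0.580, *Jam2* at 9.20 ± 0.895 and *Jam3* at 7.16 ± 0.408 followed. A lower group held *Cgnl1* at 2.99 ± 0.597, *F11r* at 2.46 ± 0.152, *Usp53* at 1.96 ± 0.241 and *Ocln* at 1.88 ± 0.215 CPM per kilobase. The order of neighbours held in all 10 C57BL/6 brains except for 3 pairs: *Cldn5* was above *Cldn12* in 6, *Cgnl1* above *F11r* in 8 and *Usp53* above *Ocln* in 6 brains. In *Winnie* brains the order was the same but for 2 genes. *Cldn5*, at 8.25 ± 1.20 CPM per kilobase, lay below *Cldn12* in all but 1 brain and its mean was also under that of *Jam2* at 9.37 ± 0.600. *Usp53*, at 2.57 ± 0.171, was level with *F11r* at 2.48 ± 0.296, with *F11r* the higher in 5 of 10 brains. These lengths count every annotated exon of a gene once, so a gene whose brain transcripts use fewer exons has a higher level per kilobase than given.

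**Figure D1:**
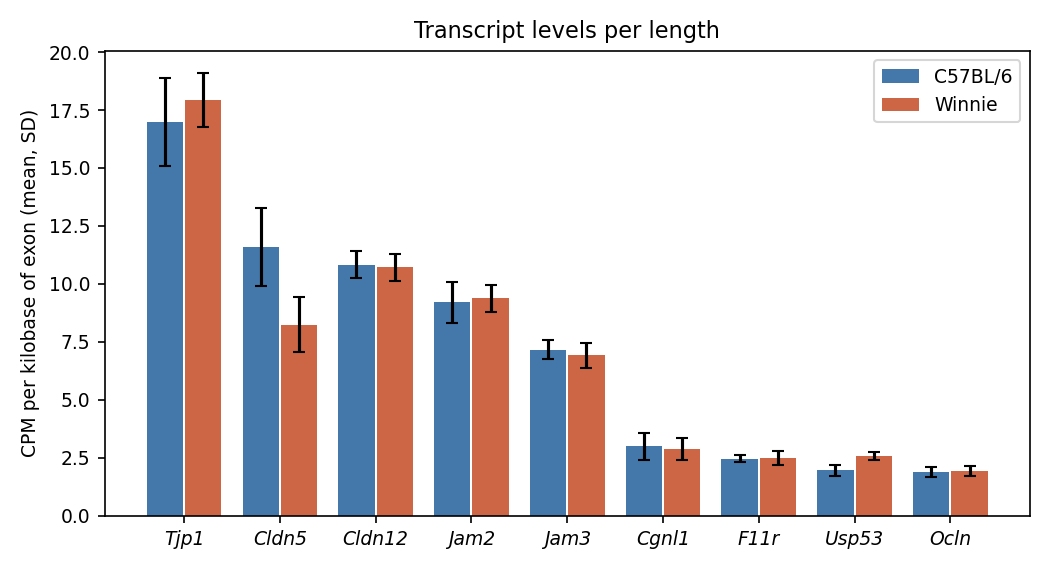
CPM per kilobase of exon (bars, mean; whiskers, SD; n = 10 brains per genotype) of the 9 transcripts, ordered by their level in C57BL/6 brains. *Tjp1* stands highest at 16.97 in C57BL/6 and 17.94 in *Winnie* brains, *Cldn5* goes from 11.6 to 8.25 and *Usp53* from 1.96 to 2.57.

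*Usp53* was higher in *Winnie* brains. Across C57BL/6 brains it ran from 20.3 CPM through a median of 24.2 to 29.5, and across *Winnie* brains from 28.8 through 32.3 to 36.3. The groups overlapped by 1 brain on each side: *Winnie* replicate 4, the lowest of its group, lay under C57BL/6 replicate 1, the highest of its own, and the other 9 *Winnie* brains lay above every C57BL/6 brain. The means were 24.7 ± 3.03 CPM in C57BL/6 and 32.3 ± 2.15 in *Winnie* brains (SD, n = 10), a difference of 0.39 on the log2(CPM + 0.5) scale with a 95% confidence interval (CI) from 0.27 to 0.51, or 1.31-fold. Between 387 and 676 reads per brain stood behind these values. Counting error alone would give a coefficient of variation of 4.65% in C57BL/6 brains, where 12.3% was measured, and of 4.06% in *Winnie* brains, where 6.65% was measured. The gene (ENSMUSG00000039701) lies on the minus strand of chromosome 3 at 122931493 to 122984510 of GRCm38.

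*Cldn5* was the other member that stood apart, and it was lower in *Winnie* brains. It ran from 13.1 CPM through a median of 15.8 to 19.7 in C57BL/6 brains, and from 8.77 through 11.7 to 15.4 in *Winnie* brains. All 10 *Winnie* brains lay under the C57BL/6 median, and 9 of them lay under every C57BL/6 brain. *Winnie* replicate 6, at 15.4 CPM, was the exception, well above the next *Winnie* brain at 12.3. The means were 16.4 ± 2.37 CPM in C57BL/6 and 11.7 ± 1.70 in *Winnie* brains (SD, n = 10), a log2 difference of -0.47 (95% CI -0.64 to -0.31), or 0.720-fold. The reads behind them, 169 to 451 per brain, are fewer than those of *Usp53*. Counting error alone would give a coefficient of variation of 5.73% in C57BL/6 brains, where 14.4% was measured, and of 6.79% in *Winnie* brains, where 14.6% was measured.

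The gene *Cldn5* (ENSMUSG00000041378) is a short one on the plus strand of chromosome 16, at 18776847 to 18778262 of GRCm38, with 1416 bases of exon. The 250 bases before its start are shown because it is the claudin that differed. They come from the RefSeq promoter table (GRCm38.p6), which held 6 of the 9 members and not *Usp53*, *Jam2* or *Jam3*. The stretch is chr16:18776597-18776846, plus strand, 5′ to 3′. Capitals mark letters that match a CCAAT box (CCAAT) or a GC box (GGGCGG), searched on both strands.

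Cldn5 upstream: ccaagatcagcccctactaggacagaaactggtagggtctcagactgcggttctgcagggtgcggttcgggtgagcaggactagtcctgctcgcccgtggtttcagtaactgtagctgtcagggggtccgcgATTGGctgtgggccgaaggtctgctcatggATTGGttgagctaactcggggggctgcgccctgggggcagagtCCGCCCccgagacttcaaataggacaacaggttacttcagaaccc

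The stretch was 59.6% G and C. CCAAT was found 2 times, both on the minus strand, with first bases at -118 and -88 relative to the start, and GGGCGG 1 time on the minus strand, at -45. These motifs did not overlap. Among 32851 promoters of this length 33.8% held CCAAT and 32.7% held GGGCGG on either strand, so both are common letters. A glucocorticoid response motif (AGAACA, in 16.1% of promoters), a forkhead motif (GTAAACA, 3.17%), a SOX motif (ACAAT, 27.7%) and a TATA box (TATAAA, 12.4%) were not among these letters. A match is a description of letters and not a site of binding.

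The other plaque members differed little. *Tjp1*, the ZO-1 scaffold, had 118 to 168 CPM with a median of 127 in C57BL/6 brains and 124 to 152 with a median of 142 in *Winnie* brains. The log2 difference was 0.08 (95% CI -0.02 to 0.19), and 8 of 10 *Winnie* brains lay above the C57BL/6 median although none lay above C57BL/6 replicate 10, the highest. *Cgnl1* ran from 16.8 through 22.03 to 31.5 CPM in C57BL/6 and from 16.6 through 21.7 to 29.6 in *Winnie* brains, with a log2 difference of -0.04 (95% CI -0.27 to 0.18). Its spread was the widest of the members in both genotypes, with coefficients of variation of 19.96% and 16.5% where counting error would give 4.80% and 4.90%, so that its interval leaves room for changes of up to 0.830-fold and 1.13-fold.

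Among the strand proteins other than *Cldn5*, *Cldn12*, a claudin without the tail motif by which most claudins bind ZO scaffolds, was the steadiest. It ran from 41.5 through 46.0 to 49.2 CPM in C57BL/6 and from 40.8 through 46.2 to 47.7 in *Winnie* brains, a log2 difference of -0.02 (95% CI -0.10 to 0.07). *Ocln*, which encodes occludin, ran from 6.27 through 7.91 to 9.34 CPM and from 7.16 through 7.87 to 10.02 CPM in the same order, a log2 difference of 0.04 (95% CI -0.11 to 0.18). Both genes overlapped between the genotypes, with 5 of 10 *Winnie* brains above the C57BL/6 median in each.

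The adhesion molecules of the JAM family also overlapped. *F11r* (JAM-A) ran from 5.81 through 6.47 to 7.15 CPM in C57BL/6 and from 5.26 through 6.60 to 7.82 in *Winnie* brains, with a log2 difference of 0.00 (95% CI -0.13 to 0.14). *Jam2* (JAM-B) ran from 47.4 through 56.0 to 64.6 CPM and from 50.7 through 57.7 to 61.0 CPM, a log2 difference of 0.03 (95% CI -0.07 to 0.13). *Jam3* (JAM-C) ran from 20.9 through 22.9 to 24.9 CPM and from 19.6 through 21.96 to 25.03 CPM, a log2 difference of -0.05 (95% CI -0.15 to 0.05), with 3 *Winnie* brains under every C57BL/6 brain. *F11r* rests on 98 to 148 reads per brain, and its coefficient of variation in C57BL/6 brains, 6.19%, was within the 8.98% that counting error alone would give. *Jam3* shares 1159 exon bases with a gene on the opposite strand that is not in the table, and it is not stated whether reads were counted by strand.

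**Figure D2:**
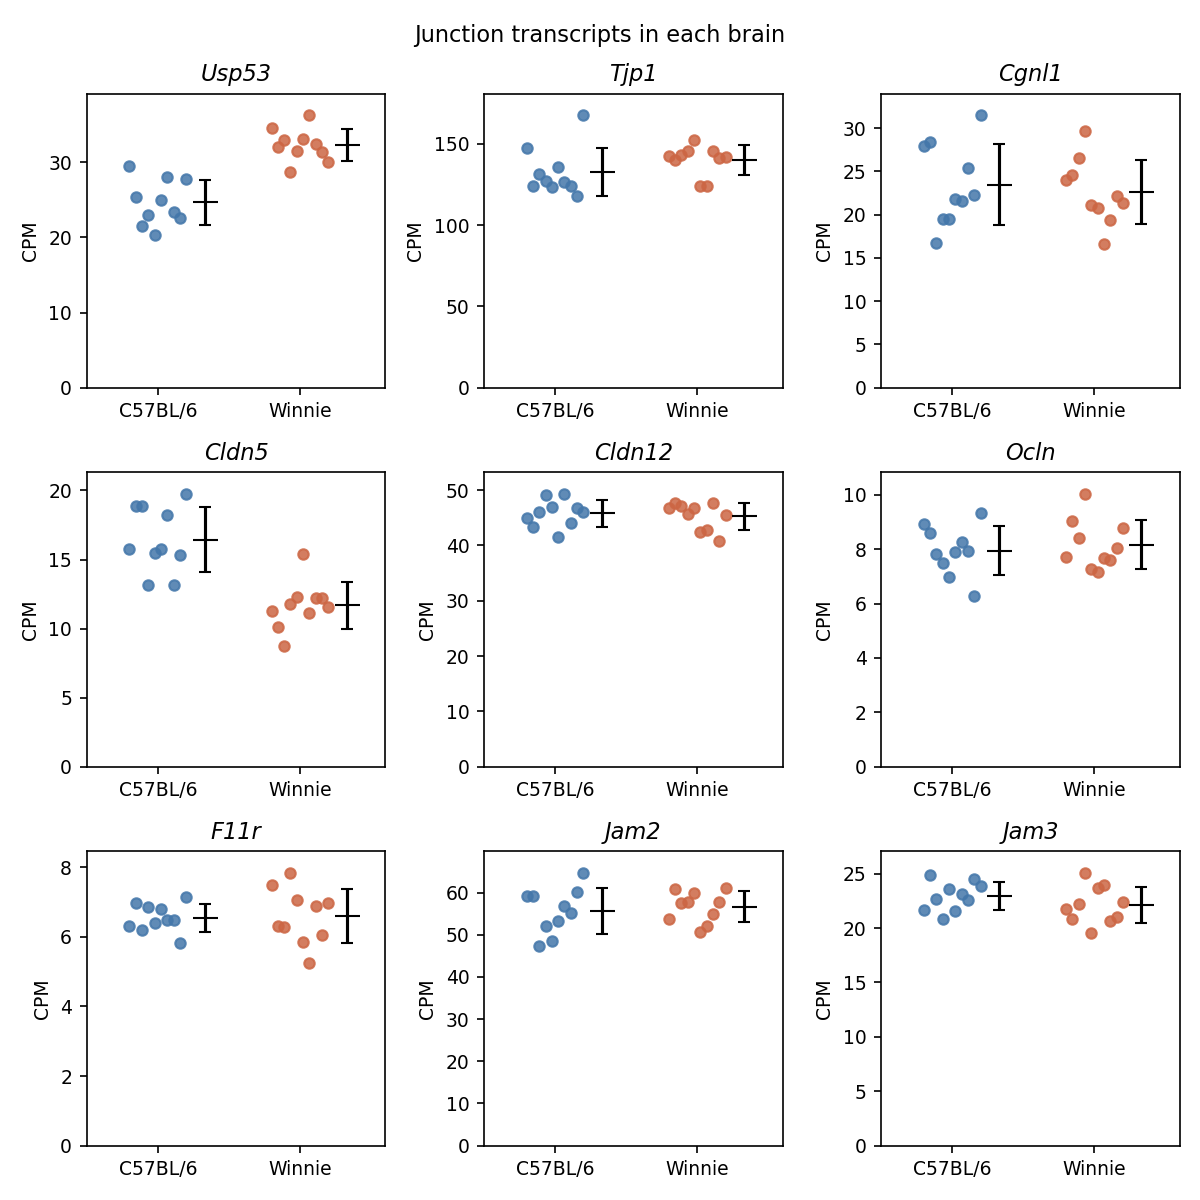
CPM of each transcript in each brain (points, ordered by replicate number within a genotype) with the mean and SD to their right; every axis starts at 0. *Usp53* in *Winnie* brains, from 28.8 to 36.3, lies above all but 1 C57BL/6 brain, *Cldn5* lies under the C57BL/6 range in 9 of 10 *Winnie* brains, and the other 7 transcripts overlap.

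At a false discovery rate (FDR, the Benjamini-Hochberg adjusted p of limma) under 0.05, 2 of the 9 members were called, *Usp53* higher and *Cldn5* lower. Over all genes 434 of 17211 were called, 2.52%, of which 261 were higher (1.52%) and 173 lower (1.01%), and nothing is read from the members' count since this contrast chose them. The remaining 7 had log2 differences from -0.05 to 0.08. The median log2 difference was 0.00 over the 9 members and 0.00 over all genes. At the threshold that the study's methods set with edgeR on fewer brains, an FDR under 0.001 with a change of 1.5-fold or more, limma called 0 genes, against 3030 at an unadjusted p under 0.05, 0 by edgeR and 10 by DESeq2. Groups without any overlap were found for 5 genes (0.0291%) and for 0 members.

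**Figure D3:**
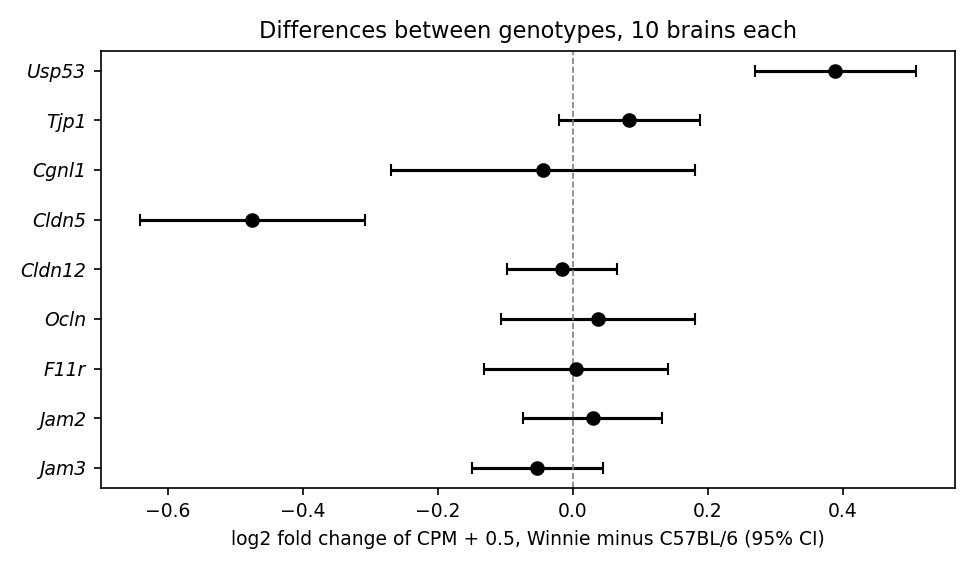
Log2 fold change of CPM + 0.5 (points) with the 95% CI from limma (whiskers) for the 9 transcripts, *Winnie* minus C57BL/6, 10 brains each; the dashed line marks no difference. The intervals of *Usp53* (0.27 to 0.51) and *Cldn5* (-0.64 to -0.31) lie on opposite sides of 0, and the other 7 include 0.

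Since both genes were measured in the same brains, their ratio does not depend on the sequencing depth. *Usp53* CPM over *Cldn5* CPM ran from 1.14 through a median of 1.51 to 1.87 in C57BL/6 brains and from 2.15 through 2.63 to 3.77 in *Winnie* brains. The ratios of the genotypes did not overlap, although each gene alone did. This is a description as well, since both genes belong to the contrast that chose them.

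**Figure D4:**
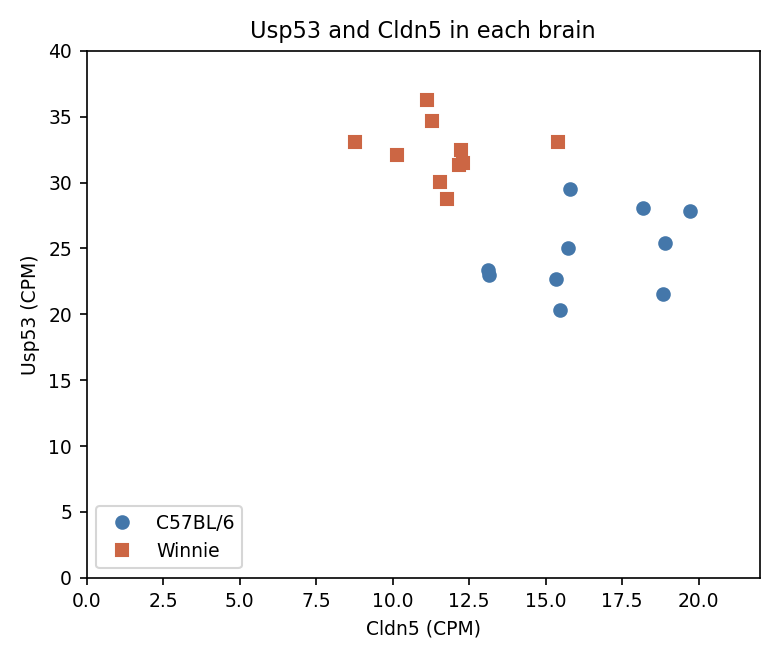
*Usp53* against *Cldn5*, both in CPM, in each of the 20 brains (circles, C57BL/6; squares, *Winnie*). The 2 genotypes form separate groups of points, with *Usp53* over *Cldn5* at most 1.87 in C57BL/6 and at least 2.15 in *Winnie* brains.

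Barrier transcripts depend on how much vessel RNA a brain sample holds, so a list of 22 endothelial markers without any member was summed in each brain. All 22 were detected. The sum ran from 559.8 through 614 to 712 CPM in C57BL/6 and from 652 through 692 to 715 CPM in *Winnie* brains, where 10 of 10 brains exceeded the C57BL/6 median. Log2 differences were above 0 for 14 and below 0 for 8 of the 22, with a median of 0.07. Among them *Slc2a1*, the glucose transporter of the barrier, was higher at 130.2 ± 12.3 against 95.6 ± 15.4 CPM (limma, log2 difference 0.45, FDR = 0.00551), and no other marker passed an FDR of 0.05. The outermost markers were *Slc2a1* and *Mfsd2a* (0.40) on the higher side and *Cd93* (-0.28) and *Sox18* (-0.18) on the lower side. Whether the sum follows the amount of vessel RNA was not tested. Without *Slc2a1* the sum still ran from 476 through 520.3 to 609 CPM in C57BL/6 and from 523 through 561 to 588 CPM in *Winnie* brains.

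*Cldn5* thus was lower in samples whose endothelial markers were, in sum, higher, although 8 of the 22 had log2 differences below 0. As a share of the endothelial sum *Cldn5* was 2.62 ± 0.303% in C57BL/6 and 1.70 ± 0.225% in *Winnie* brains (SD, n = 10), and the shares did not overlap. This is a description only, since the genotype contrast chose *Cldn5* and dividing by a sum that was higher in *Winnie* brains widens the same difference. With the endothelial sum as a covariate in limma its log2 difference was -0.63, and -0.57 with the sum that leaves out *Slc2a1*. For *Usp53* the same covariates gave 0.26, which was no longer called (FDR = 0.159), and 0.34, which was (FDR = 0.00487). *Usp53* relative to the endothelial sum was 3.94 ± 0.288% in C57BL/6 and 4.71 ± 0.396% in *Winnie* brains. The covariate with *Slc2a1* brought the genes called in all from 434 to 3. Such a fit gives both genotypes the same slope, while r of *Usp53* with the sum was 0.81 in C57BL/6 and -0.35 in *Winnie* brains. The sum also differed between the genotypes. A call lost under this covariate, here or below, thus cannot be ascribed to the endothelial level. The larger differences of *Cldn5* in these fits have the same limits, and whether *Cldn5* is independent of the endothelial level was not tested.

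**Figure D5:**
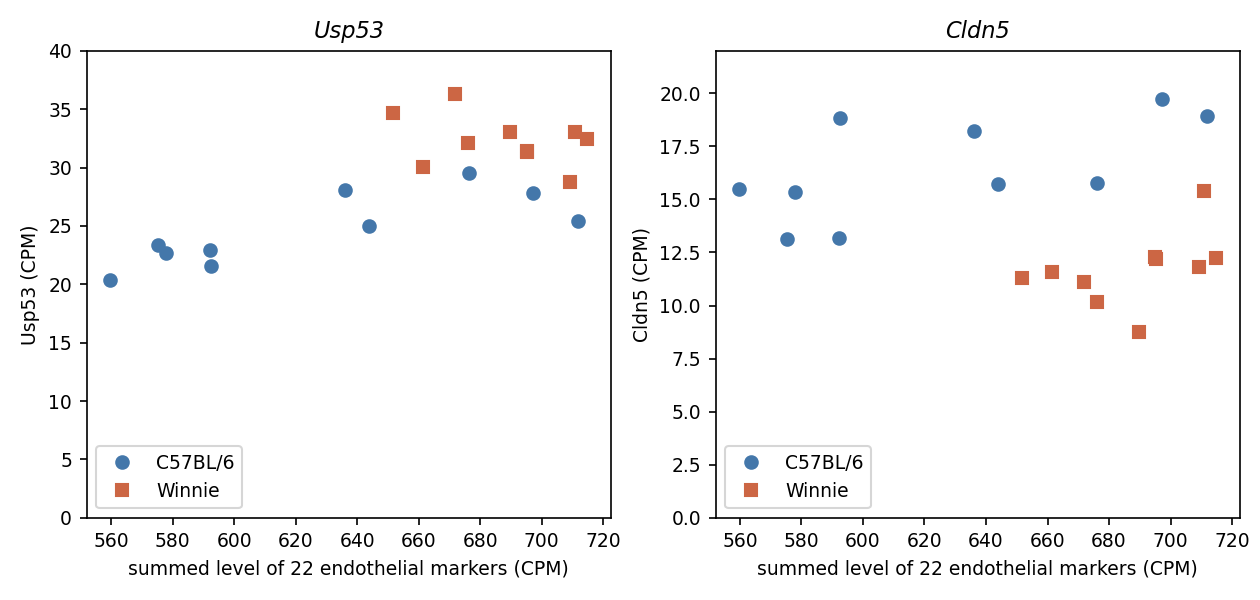
*Usp53* (left) and *Cldn5* (right), in CPM, against the summed CPM of 22 endothelial markers in each brain (circles, C57BL/6; squares, *Winnie*); the horizontal axis does not start at 0. Where the sums overlap, above 651.7 CPM, *Cldn5* is lower in all *Winnie* than in the C57BL/6 brains shown and *Usp53* is higher in most.

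Markers of the other cell types were detected throughout, with none at 0 in all brains. Of 14 mural cell markers 11 had log2 differences above 0 and 2 passed an FDR of 0.05, *Abcc9* and *Notch3*, both higher (238 to 298 CPM summed in C57BL/6, 249.6 to 308 in *Winnie* brains). Of 12 choroid plexus markers 11 were below 0 and none passed (777 to 1095 against 532 to 1079 CPM). Oligodendrocyte markers were below 0 in 9 of 10 (6540 to 8305 against 6555 to 7848 CPM) and microglial markers in 9 of 10 (367 to 405 against 334 to 435 CPM), with none called. Of 10 meningeal fibroblast markers 1, *Slc22a6*, was called as higher, of 10 astrocyte markers 1, *Gjb6*, was called as higher, and of 10 neuronal markers none was called. Of these, *Abcc9* was lost under 18, *Gjb6* under 13, *Slc22a6* under 4 and *Notch3* under 2 of 33 alternatives. With the endothelial sum as a covariate the log2 difference of *Notch3* went from 0.33 to 0.13 (limma FDR = 0.626), and without C57BL/6 replicate 5 that of *Slc22a6* from 0.39 to 0.36 (limma FDR = 0.0538). The part of these cell types in the values of the members was not tested.

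The remaining genes of the junction did not move at this threshold. Of 36 further transmembrane genes (claudins, MARVEL proteins, angulins and related adhesion proteins) 23 were measured and 0 were called in either direction, with 12 log2 differences above 0 and 11 below (median 0.02). The outermost were *Cldn14* (0.26) and *Cxadr*, a junctional adhesion protein at 27.0 ± 2.36 CPM in C57BL/6 and 30.2 ± 2.74 in *Winnie* brains (0.15), on the higher side. On the lower side they were *Cldn22* (-0.23) and *Marveld3* (-0.16), which with *Cldn14* have means under 1 CPM. Of 29 plaque genes 0 were called, with *Pard3b* (0.18), *Amotl1* (0.11), *Rab13* (-0.16) and *Pard6g* (-0.10) outermost. Of 12 adherens junction genes, whose cadherins hold the cells together beside the tight junction, 0 were called, with *Plekha7* (0.15), *Cdh2* (0.10), *Jup* (-0.14) and *Pvrl3* (-0.11) outermost. The medians, 0.00 for plaque and -0.02 for adherens junction genes, stand beside 0.00 over all genes.

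Wnt signalling from neural cells induces and maintains the barrier in brain endothelium, and of its 17 genes measured 3 were called by limma, where 2.52% of all genes were. The list was chosen with earlier results of these data known, so nothing is read from this count. *Fzd4*, the endothelial receptor of this pathway, was 6.69 ± 0.968 CPM in C57BL/6 and 9.31 ± 1.57 in *Winnie* brains (SD, n = 10), with a log2 difference of 0.44 (95% CI 0.27 to 0.62, FDR = 0.00649) and all 10 *Winnie* brains above the C57BL/6 median. *Apcdd1*, a membrane inhibitor of Wnt signalling, was 20.6 ± 3.08 and 25.1 ± 2.10 CPM (log2 difference 0.29, 95% CI 0.14 to 0.43, FDR = 0.0255). The ligand *Wnt7a* was lower at 10.8 ± 0.668 and 8.88 ± 0.870 CPM (log2 difference -0.27, 95% CI -0.39 to -0.15, FDR = 0.0146), with no *Winnie* brain above the C57BL/6 median. *Ndp*, which encodes norrin, a ligand of the FZD4 receptor, had 6.03 ± 0.476 and 5.30 ± 0.758 CPM and was not called (log2 difference -0.18, FDR = 0.187). The list's median was 0.03, with 13 log2 differences above 0 and 4 below. With the endothelial sum as a covariate, which left 3 genes called in all, *Fzd4* (0.32), *Apcdd1* (0.25) and *Wnt7a* (-0.28) were no longer called. The difference of *Wnt7a* did not shrink in that fit. *Apcdd1* was lost under 5 of 33 alternatives in all, among them without C57BL/6 replicate 3 (0.26), C57BL/6 replicate 5 (0.26) or *Winnie* replicate 8 (0.27).

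Of the 46 other ubiquitin-specific protease genes listed, 32 had log2 differences above 0 and 14 below (median 0.04), beside 8774 above and 8437 below over all genes. At an FDR under 0.05, 2 were higher and 0 lower, where 1.52% of all genes were higher. The count of 2 ran from 0 with the endothelial sum as a covariate to 5 by DESeq2, was 4 without C57BL/6 replicate 10, and was 1 under 18 of 33 alternatives. *Usp54*, the closest paralog of *Usp53*, was 99.2 ± 9.09 CPM in C57BL/6 and 118 ± 5.25 in *Winnie* brains (SD, n = 10), a log2 difference of 0.25 (95% CI 0.16 to 0.34, limma FDR = 0.00396), with all 10 *Winnie* brains above the C57BL/6 median. *Usp34* was 184 ± 15.7 and 206 ± 12.9 CPM (log2 difference 0.17, 95% CI 0.07 to 0.26, limma FDR = 0.0468). With the endothelial sum as a covariate neither was called, at 0.14 for *Usp54* and 0.08 for *Usp34*, and *Usp34* was lost under 19 of 33 alternatives where *Usp54* was lost under that 1.

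Whether the members vary together from brain to brain was asked within each genotype, where the difference that chose them plays no part. Over the 36 pairs in each genotype, 72 in all, no correlation passed a Benjamini-Hochberg adjusted p of 0.05. Pearson's r had a median of 0.36 in C57BL/6 and of 0.05 in *Winnie* brains, and was above 0 for 24 and 18 of 36 pairs. The closest pair was *Cgnl1* and *Jam2* in C57BL/6 brains, with r = 0.88 (permutation p = 0.00115, adjusted 0.0828), Spearman's rho = 0.88 (permutation p = 0.00154, adjusted 0.0806) and r = 0.73 without the 2 brains farthest from the *Cgnl1* median. *Usp53* and *Cldn5* had r = 0.36 in C57BL/6 and -0.12 in *Winnie* brains.

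*Usp53* had r above 0 in C57BL/6 and below 0 in *Winnie* brains with 6 of the 8 other members. With *Ocln* it had r = 0.77 in C57BL/6 (permutation p = 0.00874, adjusted 0.210; rho = 0.87, permutation p = 0.00224, adjusted 0.0806) and -0.63 in *Winnie* brains (permutation p = 0.0505, adjusted 0.281; rho = -0.55, permutation p = 0.105, adjusted 0.460). With *Jam2* it had r = 0.73 (permutation p = 0.0174, adjusted 0.221; rho = 0.60, permutation p = 0.0739, adjusted 0.460) and -0.67 (permutation p = 0.0337, adjusted 0.250; rho = -0.78, permutation p = 0.0109, adjusted 0.195). Without the 2 brains farthest from the *Usp53* median these were 0.69 and -0.37 for *Ocln* and 0.65 and -0.70 for *Jam2*. With *Cgnl1* and *F11r* the sign in *Winnie* brains rested on those 2 brains. There *Cgnl1* had r = -0.57 (permutation p = 0.0862, adjusted 0.296; rho = -0.44, permutation p = 0.207, adjusted 0.532), which became 0.37 without them. *F11r* had r = -0.60 (permutation p = 0.0642, adjusted 0.289; rho = -0.50, permutation p = 0.144, adjusted 0.493), which became 0.09. The differences between the genotypes were not tested, and none of these values passed the adjustment.

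The endothelial sum was set against each member in the same way, 18 relations in all. In C57BL/6 brains r was above 0 for 8 of 9 members, with a median of 0.62, and in *Winnie* brains for 4 of 9, with a median of -0.01. *Ocln* in C57BL/6 brains was the one relation under an adjusted p of 0.05 (r = 0.82, permutation p = 0.00271, adjusted 0.0488; rho = 0.79, permutation p = 0.00906, adjusted 0.0815; r = 0.76 without the 2 farthest brains). *Usp53* in C57BL/6 brains came next with r = 0.81 (permutation p = 0.00596, adjusted 0.0536; rho = 0.75, permutation p = 0.0168, adjusted 0.101; r = 0.91 without the 2 farthest brains), and in *Winnie* brains it had r = -0.35 (permutation p = 0.319, adjusted 0.574; rho = -0.24, permutation p = 0.513, adjusted 0.776). *Cldn5* had r = 0.62 (permutation p = 0.0609, adjusted 0.161; rho = 0.79, permutation p = 0.00884, adjusted 0.0815) and 0.42 (permutation p = 0.238, adjusted 0.536; rho = 0.66, permutation p = 0.0432, adjusted 0.155). Without the 2 farthest brains its r was 0.32 in C57BL/6 and 0.59 in *Winnie* brains. The *Winnie* sums spanned a narrower range than the C57BL/6 sums, which limits what 10 brains can show there.

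Among all genes with a mean of at least 1 CPM, the 8 whose levels followed *Usp53* most closely over the 20 brains, after the mean of each genotype was subtracted, were *Slc19a2* (Pearson's r = 0.78), *Vcan* (0.77), *Tnrc6a* (0.76), *Bicd1* (0.75), *Inhbb* (0.75), *Ubxn7* (0.74), *Zfp873* (0.74) and *Dopey1* (0.74). No member was among them, and the nearest, *Jam2*, had r = 0.36 and rank 2125. *Slc19a2* was close in both genotypes (0.86 in C57BL/6 and 0.74 in *Winnie* brains), whereas *Bicd1* had 0.93 and 0.15. Of the 8, *Vcan* alone was called between the genotypes, at 22.5 ± 3.14 CPM in C57BL/6 and 27.5 ± 1.53 in *Winnie* brains (SD, n = 10; log2 difference 0.29, limma FDR = 0.0112). With the endothelial sum as a covariate it was no longer called, at 0.16 (FDR = 0.4658) or, without *Slc2a1* in the sum, at 0.23 (FDR = 0.0631). These values describe 20 libraries that share depth and composition effects, and no p is given for genes picked as the highest of all.

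Sex was compared in *Winnie* brains only, where *Xist* and *Ddx3y* went with the labels, 5 female against 5 male. Over all genes limma called 20 of 17211 at an FDR under 0.05 (0.116%), against 1688 at an unadjusted p under 0.05 (9.81%), and no member was among the 20. *Cgnl1* was the member with the largest difference, at 21.1 to 29.6 CPM in females and 16.6 to 22.1 in males, with means of 25.2 ± 3.14 and 20.03 ± 2.17 CPM (SD, n = 5). Its log2 difference, female minus male, was 0.32 (95% CI 0.14 to 0.50, limma unadjusted p = 0.00143, FDR = 0.165; two-sided exact permutation p = 0.0238, adjusted over 9 members 0.214). The smallest p that 5 against 5 brains allow in this exact test is 0.00794. *Usp53* had a log2 difference of -0.03 (95% CI -0.17 to 0.11) and *Cldn5* of -0.19 (95% CI -0.40 to 0.01), and neither passed. The term for an effect of genotype that depends on the labelled sex was called by limma for 12 genes (0.0697%) and for 0 members. In 9 of 10 C57BL/6 brains *Xist* and *Ddx3y* went against the label, so this term does not compare the sexes alike in both genotypes. The counts of this term, 12 genes and 0 members, are therefore not read as an effect of sex.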

How the data were processed

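The authors made polyA libraries from brain RNA, sequenced them with paired-end reads on an MGISEQ-2000RS and used RNAsik (genome GRCm38) and FeatureCounts to count reads on genes. The aligner and the strand setting are not given in the sources used here. The authors deposited CPM (reads scaled to 1 common total over the listed genes) made with Degust. In the deposited CPM every value was a whole number of reads (100% in each sample, tolerance 0.1 read), and these reads entered edgeR 4.0.16 and DESeq2 1.42.0 as alternatives. The main test was limma 3.58.1 (R 4.3.3) with trend and robust variance on log2(CPM + 0.5) over all 20 samples and 17211 genes, with Benjamini-Hochberg adjustment; the step was tested on simulated data. The fold change of a low gene is understated by the added 0.5.

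Genotype and sex groups are those of the labels. The members and gene lists were chosen with earlier results of these data known. Named genes were the members, list genes at an FDR under 0.05 or among the 2 outermost on either side of their list, the 8 genes nearest to *Usp53*, *Usp* genes at an FDR under 0.05 with *Usp54*, and *Xist*, *Ddx3y* and *Muc2*. Cell type markers that were called and the outermost endothelial markers were named too, after their values were seen. List symbols were matched through GENCODE M21, which held 17128 of the listed genes and gave coordinates and exon lengths. Correlations used 100000 permutations (numpy 2.4.6, scipy 1.17.1). Nothing states that the animals of a group were from separate litters, so p-values measure the spread between these samples. Counting errors assume independent reads.

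Alternatives were pseudocounts of 0.1 and 1, a mean of at least 1 CPM, median-ratio, TMM and quantile scaling, covariates (labelled sex, *Ddx3y* or the endothelial level), a block of replicate numbers, leaving out every sample in turn, edgeR and DESeq2. The endothelial level without *Slc2a1* was added after seeing the data.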

Additional observations from a re-analysis of the deposited data

Results flagged for a closer look

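Each member and each cell type list was looked at for a brain far from the others of its genotype, which gave 34 groups of 10 brains and 2 with such a brain. Chance flags about 1 in 20 groups, so 2 of 34 is close to what chance gives. *Cldn5* in *Winnie* replicate 6 was 15.4 CPM, where the next *Winnie* brain had 12.3 CPM and the lowest 8.77 CPM, so the gap took 0.467 of the range of the group. Without this brain the log2 difference of *Cldn5* was -0.52. The summed level of the 10 microglial markers in *Winnie* replicate 9 was 435 CPM, where the next *Winnie* brain had 385 CPM and the lowest 334 CPM.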

How the results depend on the processing

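With each of 20 brains left out and under 13 other alternatives *Cldn5* remained called with log2 differences from -0.63 to -0.43, and *Usp53* remained called with 0.34 to 0.42 in all but one, the endothelial level as a covariate (0.26, FDR = 0.159). That covariate left 3 genes called in all and 1 member, and turned *Tjp1* (-0.0100), *Cldn12* (0.0155), *Ocln* (-0.0869), *F11r* (-0.0446) and *Jam2* (-0.0558); without *Slc2a1* in the level 93 genes were called, 1 passed the study's threshold, and *Ocln* (-0.0281), *F11r* (-0.0306) and *Jam2* (-0.0237) turned. Quantile normalization turned *F11r* (-0.00143). Genes called were 514 by edgeR, with 0 at the study's threshold, and 968 by DESeq2, with 10 at the study's threshold. Leaving out each brain gave 169 to 694 called genes (without C57BL/6 replicate 3, 238; 5, 169; 8, 250; 9, 270; 10, 694; without *Winnie* replicate 2, 264; 3, 241; 7, 256; 8, 216), 0 to 2 at the study's threshold (2 without C57BL/6 replicate 2) and 2 members throughout, with *F11r* from -0.0216 to 0.0375, *Cgnl1* from -0.0933 to 0.00556 and *Cldn12* from -0.0312 to 0.000742. For sex in *Winnie* brains it gave 12 to 67 genes (67 without replicate 1, 43 without 10, 12 without 2 or 4). Of the list genes named as called, *Fzd4*, *Wnt7a*, *Slc2a1* and *Usp54* were lost under 1 of 33 alternatives each. The endothelial level contains *Slc2a1* itself, so that covariate is not a check of *Slc2a1*. No pair of members passed in either of the 2 alternatives run for the correlations, CPM with no log and the 2 farthest brains left out. The replicate number as a block gave 227 genes and 2 members. Same-numbered brains correlated above 0.1 in 2 of 10 pairs, and 1 C57BL/6 brain was closest to its own number. The paper calls the C57BL/6 mice littermates without naming litters. These correlations cannot show whether same-numbered brains shared a litter or handling, since most of the pairs differed in sex by *Xist* and *Ddx3y*. The causes were not tested. At 98 to 187 reads per brain, the values of *F11r* and *Ocln* are limited most by counting.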
